A study of Arabidopsis thaliana with 6 samples.

Results

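In the count files 10 of 32833 genes are regulators of the iron deficiency response of Arabidopsis thaliana that are described here. They are the 4 transcription factors of subgroup Ib (bHLH38, AT3G56970, bHLH39, AT3G56980, bHLH100, AT2G41240, and bHLH101, AT5G04150), the 3 IRON MAN peptide genes (IMA1, AT1G47400, IMA2, AT1G47395, and IMA3, AT2G30766), FIT (AT2G28160), PYE (AT3G47640) and BTS (AT3G18290), each found by its locus identifier. They were chosen by name, with earlier results of these same 6 libraries known, among them that bHLH39 and the iron deficiency genes were lower in the transgenic line. Differences between the genotypes are therefore given as a description, and nothing is supported with them.

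The libraries hold 3′ RNA-seq counts of whole seedlings, 3 of the common laboratory accession Col-0 as wild type and 3 of amiRNA-VQ1,10, titled Rvq110, a line expressing an artificial microRNA directed at VQ1 and VQ10. The labels name neither the promoter that drives the artificial microRNA nor the number of lines. All plants grew on MS medium with 1% sucrose for 14 days, in long days of 16 h light and 8 h dark at 21% O2 (normoxia), and were taken 4 h after the lights came on. The series' design text calls the replicates independent biological ones.

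Plants short of iron raise the genes that take it up. In background knowledge, bHLH factors of subgroup IVc together with URI switch on the Ib bHLH genes, PYE, BTS and the IMA genes. The Ib proteins pair with FIT in the root epidermis and turn on the iron transporter IRT1 and the ferric reductase FRO2. BTS is an E3 ubiquitin ligase that marks IVc factors for degradation, and the IMA peptides keep BTS from doing so. PYE represses some genes of iron distribution, and ferritins, which store iron, are low when iron is short.

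Totals over genes lay between 926209 and 1329817 counts per library, with a median tested gene at 27 to 38 counts. VQ1 had 5, 1 and 2 counts in the Col-0 libraries and 0 in each amiRNA-VQ1,10 library, and VQ10 had 1 count in Col-0 replicate 1 and 0 elsewhere, so the lowering of these targets could hardly be read at this depth. Both parts of the seedling were present. The summed level of 14 root markers was 1181 to 1318 CPM (counts divided by the TMM-scaled library size and put on a common scale) in Col-0 and 1185 to 1651 CPM in amiRNA-VQ1,10, mostly from PYK10, a β-glucosidase of root ER bodies. The 4 shoot markers summed to 13543 to 13808 CPM in Col-0 and 13821 to 15026 CPM in amiRNA-VQ1,10. In whole seedlings a lower level cannot be told apart from fewer cells that express the gene.

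The 10 genes fall into relatives and neighbours, which matters for whether reads can be told apart. bHLH38 and bHLH39 are next to each other on chromosome 3 on the same strand, 1144 bases apart, and their coding sequences are 83.4% identical. IMA2 and IMA1 are likewise adjacent on chromosome 1, 1876 bases apart, with coding sequences of 153 bases each that are 88.9% identical. IMA3, on chromosome 2, shares 51.4% with IMA1 and 52.1% with IMA2. In the last 300 bases of the transcripts, from which 3′ reads come, the longest identical stretch was 17 bases between bHLH38 and bHLH39 and 9 bases between IMA1 and IMA2. Pairs within the Ib and IMA families were 47.3% to 53.3% identical over these 300 bases. The likeness of the coding sequences was thus much less marked where the reads lie. The coding values of IMA3 against IMA1 and IMA2 lie in that same range and are not read as likeness.

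The upstream sequences of 4 regulators are shown because factors of the bHLH family are known to bind the G-box, CACGTG, which reads the same on both strands. Each line gives the 250 bases before the annotated start of the gene, from the TAIR10.1 genome with its RefSeq annotation, in the direction of transcription, with every CACGTG in capitals.
bHLH38, chr3:21085246-21085495, minus strand: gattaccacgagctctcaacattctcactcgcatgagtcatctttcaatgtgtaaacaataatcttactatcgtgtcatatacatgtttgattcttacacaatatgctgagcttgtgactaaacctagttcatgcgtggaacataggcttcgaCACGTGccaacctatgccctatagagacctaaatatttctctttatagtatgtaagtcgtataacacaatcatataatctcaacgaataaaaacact
bHLH39, chr3:21087711-21087960, minus strand: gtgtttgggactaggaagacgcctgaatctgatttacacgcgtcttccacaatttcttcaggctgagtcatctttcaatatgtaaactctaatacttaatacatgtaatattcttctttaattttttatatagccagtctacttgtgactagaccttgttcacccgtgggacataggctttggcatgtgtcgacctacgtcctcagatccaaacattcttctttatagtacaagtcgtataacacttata
bHLH100, chr2:17199455-17199704, minus strand: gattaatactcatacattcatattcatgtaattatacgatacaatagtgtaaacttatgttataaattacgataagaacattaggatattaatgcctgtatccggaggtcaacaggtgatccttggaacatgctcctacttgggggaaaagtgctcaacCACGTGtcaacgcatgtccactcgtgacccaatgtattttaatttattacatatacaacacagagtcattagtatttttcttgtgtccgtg
BTS, chr3:6273716-6273965, plus strand: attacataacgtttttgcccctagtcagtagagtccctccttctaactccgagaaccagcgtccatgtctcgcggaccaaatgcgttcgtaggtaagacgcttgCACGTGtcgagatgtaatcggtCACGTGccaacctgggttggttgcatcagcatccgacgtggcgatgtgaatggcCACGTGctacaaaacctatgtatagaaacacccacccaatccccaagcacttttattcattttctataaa
BTS held 3 copies, beginning 146, 124 and 70 bases before the start. bHLH38 and bHLH100 held 1 copy each, beginning 97 and 91 bases before it, and bHLH39 and the other 6 regulators held none in this window. Of 27443 windows of the same length before nuclear protein-coding genes, 6.49% held a CACGTG. The wider E-box, CANNTG, of which the G-box is a special case, was found in 8 of the 10 regulators and in 55.3% of all windows. A match is a run of letters and does not show binding.

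The windows of IMA1 and IMA2 are shown because these genes are adjacent and had similar levels. Mean level in Col-0 did not set them apart from IMA3, which lies on chromosome 2. It had 196.6 CPM, beside 197.7 for IMA1 and 195.9 for IMA2. IMA1 and IMA2 were less alike in amiRNA-VQ1,10 replicate 2, at 124.7 and 100.2 CPM. Capitals mark the longest stretch that both share without a difference, 28 bases, and over the 250 bases the windows were 68.1% identical.
IMA1, chr1:17385457-17385706, plus strand: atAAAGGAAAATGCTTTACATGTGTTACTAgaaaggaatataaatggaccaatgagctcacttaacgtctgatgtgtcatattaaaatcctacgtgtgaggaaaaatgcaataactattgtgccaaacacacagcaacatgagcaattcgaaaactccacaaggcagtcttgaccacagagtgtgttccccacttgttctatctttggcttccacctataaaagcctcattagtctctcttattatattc
IMA2, chr1:17382748-17382997, plus strand: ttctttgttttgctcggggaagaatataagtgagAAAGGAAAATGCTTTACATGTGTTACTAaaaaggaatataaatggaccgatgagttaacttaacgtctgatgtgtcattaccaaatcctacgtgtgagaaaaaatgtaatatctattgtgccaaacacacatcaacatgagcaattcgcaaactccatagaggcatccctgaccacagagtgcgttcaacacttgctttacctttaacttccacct
The shared stretch begins 248 bases before the start of IMA1 and 216 bases before that of IMA2. The windows of bHLH38 and bHLH39 were 61.1% identical, with a longest shared stretch of 16 bases. That of IMA3 was 48.3% identical to the window of IMA1 and 53.7% to that of IMA2.

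All 4 subgroup Ib bHLH genes had a lower mean in amiRNA-VQ1,10, by 2.12-fold to 2.73-fold. bHLH39 stood at 122.8, 63.1 and 68.8 CPM in Col-0 replicates 1, 2 and 3 and at 27.3, 37.8 and 49.0 CPM in those of amiRNA-VQ1,10. The genotypes did not overlap, and Col-0 replicate 1 lay far above its fellows. The means were 84.9 ± 32.9 and 38.1 ± 10.8 CPM (SD, n = 3), with a log2 fold change of -1.14 ± 0.23 (SE). bHLH38 stood at 109.7, 26.2 and 55.2 CPM in Col-0 and at 9.43, 28.9 and 31.5 CPM in amiRNA-VQ1,10. Its genotypes overlapped, since Col-0 replicate 2 was below 2 amiRNA-VQ1,10 libraries, although its log2 fold change of -1.43 ± 0.38 was the lowest of the 9 regulators tested. bHLH38 also varied most within a genotype, 4.19-fold between the highest and the lowest Col-0 library.

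bHLH100 stood at 87.1, 35.4 and 35.3 CPM in Col-0 and at 11.3, 28.9 and 34.1 CPM in amiRNA-VQ1,10, a log2 fold change of -1.07 ± 0.32. Replicate 1 was the extreme library of each genotype, and the remaining libraries were close to each other across genotypes. bHLH101 was the scarcest of the 10, with 16, 11 and 11 counts in Col-0 and 3, 4 and 7 in amiRNA-VQ1,10. It did not pass the filter on low counts and was not tested. Over the 3 libraries of a genotype its level was 10.7 CPM in Col-0 (exact Poisson 95% interval 7.57 to 14.7) and 4.51 CPM in amiRNA-VQ1,10 (2.47 to 7.57), intervals that cover counting error only. Together the 4 Ib genes summed to 333, 133 and 169 CPM in Col-0 and to 50.9, 100.2 and 120.8 CPM in amiRNA-VQ1,10, without overlap.

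**Figure D1:**
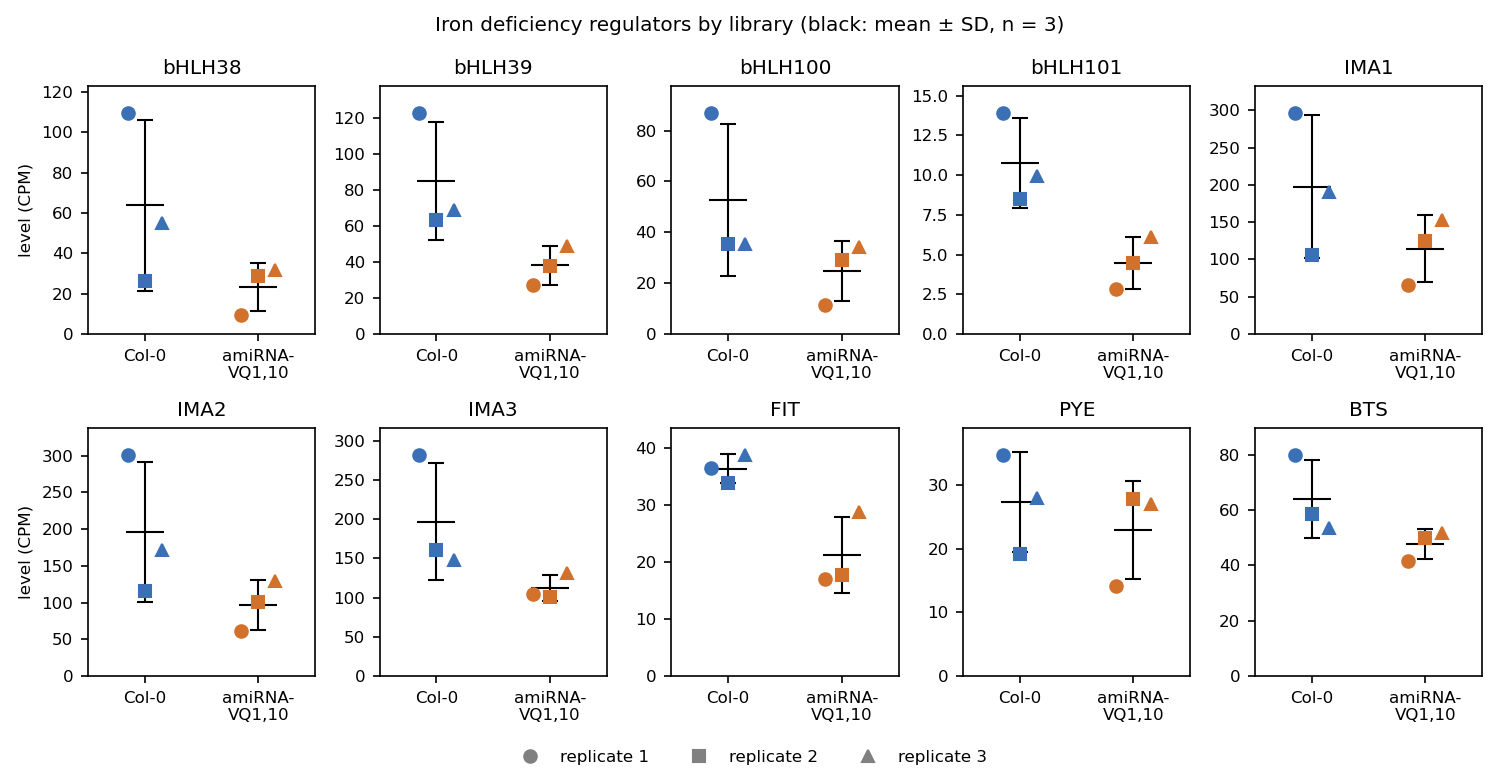
Level of each regulator in CPM (linear axis from 0) in the 6 libraries, with Col-0 in blue and amiRNA-VQ1,10 in orange, the marker giving the replicate number and the black bar the mean ± SD (n = 3). Col-0 replicate 1 is the highest library for 9 of the 10 genes, and FIT is the exception.

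The IMA genes, which encode short peptides, had the highest levels of the 10 in both genotypes. IMA1 stood at 296.9, 106.2 and 190.1 CPM in Col-0 and at 66.0, 124.7 and 153.2 CPM in amiRNA-VQ1,10. IMA2 had similar levels, at 301.3, 115.4 and 171.1 CPM in Col-0 and at 61.3, 100.2 and 129.5 CPM in amiRNA-VQ1,10. In both genes Col-0 replicate 2 was within the range of amiRNA-VQ1,10, so the genotypes overlapped. Their log2 fold changes were -0.77 ± 0.25 and -0.998 ± 0.244.

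IMA3 stood at 282.1, 160.1 and 147.5 CPM in Col-0 and at 104.7, 101.3 and 131.3 CPM in amiRNA-VQ1,10. Its genotypes did not overlap, and its amiRNA-VQ1,10 libraries were closer together than those of IMA1 and IMA2, with a coefficient of variation of 14.6% against 38.8% and 35.3%. The log2 fold change was -0.79 ± 0.18. The 3 IMA genes summed to 590 ± 259 CPM in Col-0 and 324 ± 91.0 CPM in amiRNA-VQ1,10 (SD, n = 3), a ratio of 1.82.

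FIT, the root partner of the Ib factors, differed from most regulators in its profile over the Col-0 libraries. It stood at 36.6, 33.9 and 38.9 CPM in Col-0 and at 16.97, 17.8 and 28.9 CPM in amiRNA-VQ1,10. The genotypes did not overlap, and Col-0 replicate 1 did not stand out. The coefficient of variation of FIT in Col-0 was 6.94%, below the 15.2% that counting error alone gives at these counts, whereas for the other tested regulators it was 22.2% to 66.6%. In amiRNA-VQ1,10 FIT was lowest in replicate 1 and highest in replicate 3, as most regulators were, with a coefficient of variation of 31.3%. The log2 fold change of FIT was -0.75 ± 0.22.

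The 2 negative regulators differed least between the genotypes. BTS stood at 80.1, 58.5 and 53.4 CPM in Col-0 and at 41.5, 50.1 and 51.6 CPM in amiRNA-VQ1,10, with a log2 fold change of -0.42 ± 0.17. Its genotypes were separate by a narrow margin. PYE stood at 34.8, 19.2 and 28.1 CPM in Col-0 and at 14.1, 27.8 and 27.1 CPM in amiRNA-VQ1,10, and the genotypes overlapped. The log2 fold change of PYE was -0.24 ± 0.26, smaller than its standard error, and it was 0.02 ± 0.26 without amiRNA-VQ1,10 replicate 1.

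Because 3′ counts do not grow with transcript length, CPM of different genes are set side by side here. Reads that may have been lost where genes overlap, as at the 3′ ends of bHLH38, IMA3 and bHLH101, were not corrected for. In Col-0 the order of mean level was IMA1 (197.7 CPM), IMA3 (196.6), IMA2 (195.9), bHLH39 (84.9), BTS (64.0), bHLH38 (63.7), bHLH100 (52.6), FIT (36.4), PYE (27.4) and bHLH101 (10.8). Neighbours in this order overlapped in their ranges over the 3 libraries, apart from PYE and bHLH101. In amiRNA-VQ1,10 the IMA genes led again, at 97.0 to 114.6 CPM, and BTS stood next at 47.7 CPM, above bHLH39 at 38.1 CPM in each of the 3 libraries. There bHLH100 (24.8 CPM) and bHLH38 (23.3 CPM) changed places, as did PYE (23.0 CPM) and FIT (21.2 CPM), each pair with overlapping ranges. The ranges of IMA2 and BTS, and those of FIT and bHLH101, were the separate neighbours in amiRNA-VQ1,10.

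All 9 tested regulators had a log2 fold change below 0, with a median of -0.79, beside a median of 0.00 over all 12701 genes tested, of which 49.3% were below 0. The edgeR quasi-likelihood test called 1 of them lower, bHLH39 (adjusted p = 0.0478), and 0 higher, where 0.0787% of all tested genes were called lower and 0.0236% higher. The other 8 had adjusted p of 0.0999 to 0.964. In 5 of the 9 (bHLH39, bHLH100, IMA3, FIT and BTS) every amiRNA-VQ1,10 library was below every Col-0 library, as in 5.1% of all tested genes, and in 0 was it above, against 5.3%. Nothing is read from these counts, since the comparison was known when the genes were chosen. Leaving out a library ended the call of bHLH39 in 3 of 6 cases, with an adjusted p of 0.296 without Col-0 replicate 1 and of 0.253 and 0.0731 when amiRNA-VQ1,10 replicate 1 or 2 was dropped. It was not called by DESeq2, limma-voom, with a strict filter or with the replicate block either (adjusted p = 1, 0.113, 0.0925 and 0.0803). Other regulators were called in some fits with a library left out: IMA1, IMA2, IMA3 and bHLH38 without Col-0 replicate 2, IMA3 without Col-0 replicate 3, and IMA2 without amiRNA-VQ1,10 replicate 3. Over all genes these fits called 37, 15 and 22, against 13 with all libraries.

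The regulators also differed between the libraries within a genotype. Of the 9 tested regulators, 8 were highest in replicate 1 among the Col-0 libraries, a place that this library took for 34.1% of all tested genes. In amiRNA-VQ1,10 the same number of regulators, 8, were lowest in replicate 1, which was the lowest library of its genotype for 32.4% of all tested genes. On the mean of the regulators' log2 CPM, each centred over the 6 libraries, Col-0 replicates 1, 2 and 3 stood at 0.97, -0.05 and 0.29, and those of amiRNA-VQ1,10 at -0.93, -0.28 and -0.01. Thus Col-0 replicate 2 and amiRNA-VQ1,10 replicate 3 were nearly level, and the replicates numbered 1 held both extremes. The root marker sums of replicates 1, 2 and 3 were 1318, 1181 and 1247 CPM in Col-0, in the same order as the regulators, and 1375, 1651 and 1185 CPM in amiRNA-VQ1,10, in another order. Without PYK10 they were 242.1, 226.2 and 187.3 CPM in Col-0, highest of all 6 libraries in replicate 1, and 205.6, 233.7 and 166.3 CPM in amiRNA-VQ1,10. Whether tissue makeup takes part in the order was not tested.

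**Figure D2:**
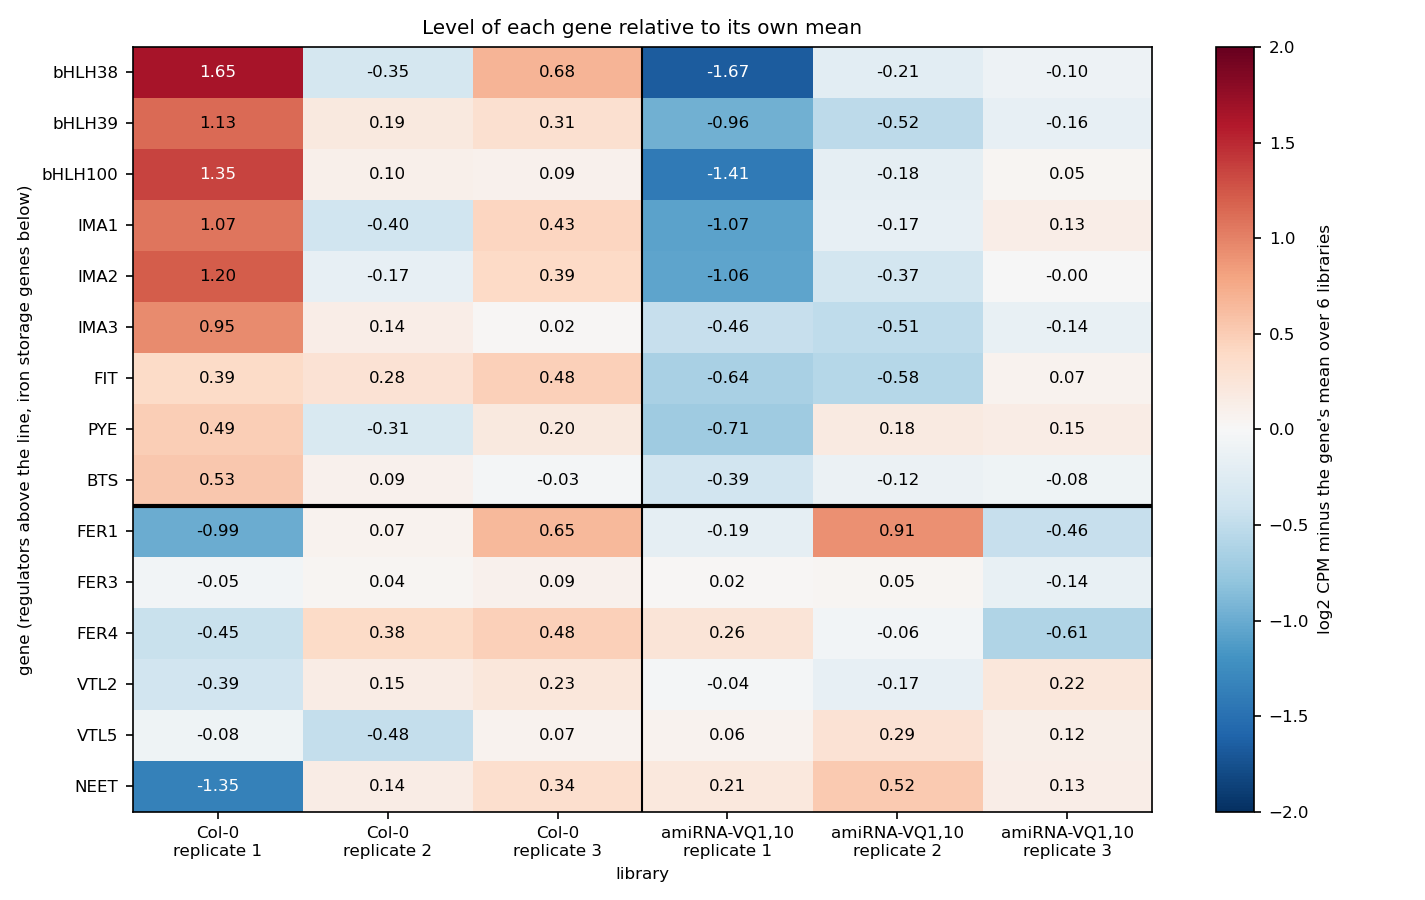
Log2 CPM of each gene minus its own mean over the 6 libraries (columns), for the 9 tested regulators above the line and the 6 tested iron storage genes below it, with red for higher and blue for lower. In Col-0 replicate 1 all 9 regulators are above their mean, bHLH38 by 1.65, while NEET is 1.35 and FER1 0.99 below theirs.

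Leaving replicate 1 out of both genotypes, a choice made after the values were seen, brought the Ib and IMA genes closer to 0 while FIT changed little. Col-0 replicate 1 was the highest library for each Ib and IMA gene but not for FIT. This contrast therefore follows from the choice, and nothing is read from it. In that fit bHLH38 stood at -0.39 ± 0.30, bHLH100 at -0.15 ± 0.23, IMA1 at -0.07 ± 0.21, IMA2 at -0.29 ± 0.19 and IMA3 at -0.39 ± 0.16 (log2 fold change, SE, n = 2 per genotype). bHLH39 stood at -0.58 ± 0.19 and FIT at -0.60 ± 0.26, BTS at -0.14 ± 0.19 and PYE at 0.23 ± 0.27. The median of the 9 was -0.29 and 0 of them were called.

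**Figure D3:**
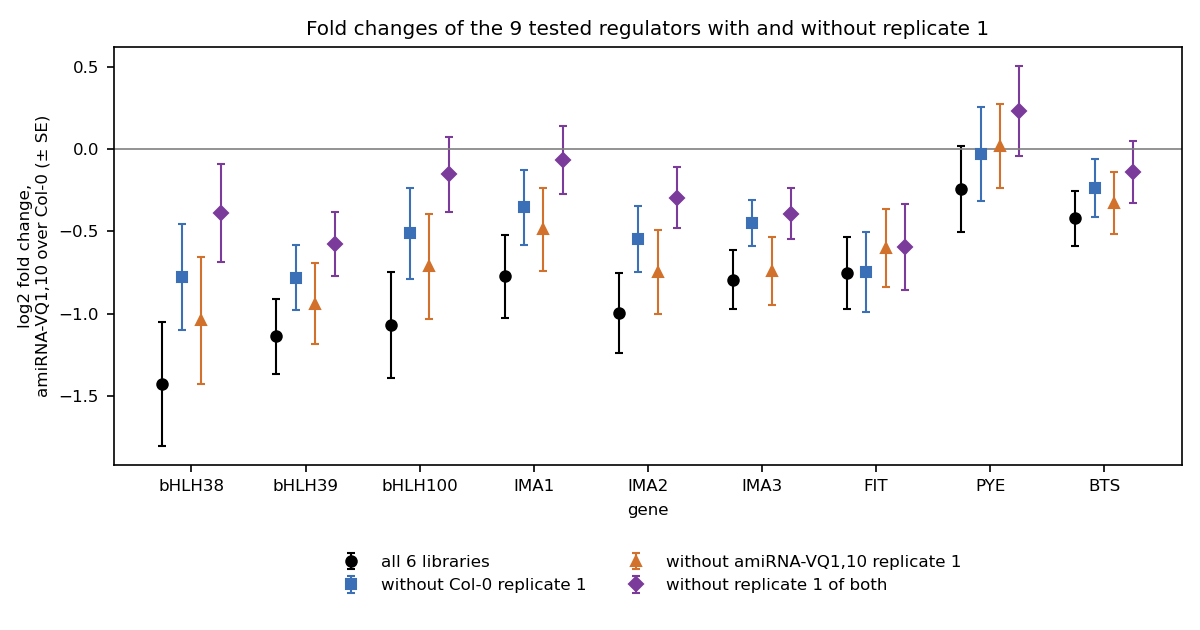
Log2 fold change of amiRNA-VQ1,10 over Col-0 (± SE) for the 9 tested regulators with all 6 libraries, without replicate 1 of either genotype in turn, and without replicate 1 of both. Without both, which was chosen after the values were seen, IMA1 moves from -0.77 to -0.07 and FIT from -0.75 to -0.60.

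The 9 tested of 13 root genes on the FIT side, for iron uptake and coumarin export, were all below 0 (-0.95 to -0.15, median -0.30), a range that overlapped that of the regulators (-1.43 to -0.24), and 0 were called in either direction. These figures moved with single libraries, in both directions. The median was -0.49 without Col-0 replicate 2 and -0.79 without amiRNA-VQ1,10 replicate 3. It was -0.21 without Col-0 replicate 1 and -0.20 without replicate 1 of both genotypes. F6′H1 and CYP82C4 were called without Col-0 replicate 2, FRO2 and CYP82C4 without Col-0 replicate 3, CYP82C4 without amiRNA-VQ1,10 replicate 3, and these 3 with IRT1 when no filter was set. Over all genes these fits called 37, 15, 22 and 92, against 13 in the fit reported. The median was -0.47 over the 13 genes with no filter and -0.66 over the 6 that passed a strict one. IRT1, the main iron transporter of the root, stood at 323.9, 220.1 and 140.3 CPM in Col-0 and at 144.3, 119.1 and 226.7 CPM in amiRNA-VQ1,10, with a log2 fold change of -0.47 ± 0.21. Its genotypes overlapped, as did those of the ferric reductase FRO2, at 215.9, 106.2 and 76.9 against 66.0, 64.6 and 90.2 CPM. F6′H1 (AT3G13610), an enzyme of coumarin synthesis, had a log2 fold change of -0.95 ± 0.23, and CYP82C4, a cytochrome P450 of the same pathway, one of -0.92 ± 0.21. AHA2, the proton pump that acidifies the soil around the root, had one of -0.15 ± 0.11.

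Of 10 iron deficiency genes outside the FIT branch, all tested, 9 were below 0 (median -0.43) and 0 were called, while the median was -0.13 without Col-0 replicate 1 and 2 genes were called with no filter. FRO3, a mitochondrial ferric reductase, had a log2 fold change of -0.66 ± 0.22, OPT3, a transporter of the phloem, one of -0.60 ± 0.19, the kelch repeat gene AT3G07720 one of -0.56 ± 0.17, and ZIF1, a vacuolar nicotianamine transporter, one of -0.45 ± 0.16. In Col-0 9 of the 10 were highest in replicate 1, whereas in amiRNA-VQ1,10 5 were lowest and 4 highest in replicate 1. Over all tested genes, Col-0 replicate 1 was highest for 34.1%, and amiRNA-VQ1,10 replicate 1 was lowest for 32.4% and highest for 32.5%. Of 8 genes that act above the regulators 5 were tested, with a range of -0.59 to 0.11, a median of -0.21 and 0 called. This median was -0.024 without Col-0 replicate 1, -0.35 without amiRNA-VQ1,10 replicate 3 and -0.013 over the 2 genes that passed a strict filter. The IVc factor ILR3 had a log2 fold change of 0.11 ± 0.15, its relatives bHLH104 and bHLH115 ones of -0.37 ± 0.26 and -0.12 ± 0.17, URI one of -0.21 ± 0.22, and the ligase BTSL1, a relative of BTS, one of -0.59 ± 0.36.

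The iron storage list, ferritins and other genes whose transcripts drop when iron is short, showed no common direction between genotypes. Of its 8 genes 6 were tested, 4 above and 2 below 0 (median 0.07, and from -0.14 without Col-0 replicate 1 to 0.28 without Col-0 replicate 3), with 0 called. Within Col-0, however, 5 of the 6 were lowest in replicate 1, a place that this library took for 33.5% of all tested genes. It was the library in which 8 of the 9 regulators were highest, and the margins of the storage genes differed. FER1, a ferritin, stood at 72.3, 152.4 and 229.0 CPM in Col-0 and at 127.3, 273.8 and 105.0 CPM in amiRNA-VQ1,10. NEET, an iron-sulphur protein of the chloroplast and mitochondria, stood at 34.8, 101.6 and 116.8 CPM in Col-0 and at 106.6, 132.4 and 100.7 CPM in amiRNA-VQ1,10. Col-0 replicate 1 was the lowest of all 6 libraries for both genes, and the other 5 libraries overlapped between genotypes. These are the genes with the deepest dip there, and in centred log2 CPM FER3, another ferritin, was only 0.05 below its mean in that library. The ferritin FER4 had a log2 fold change between genotypes of -0.32 ± 0.28 and VTL5, a relative of a vacuolar iron transporter, one of 0.33 ± 0.19. In amiRNA-VQ1,10 replicate 1, where 8 of the 9 regulators were lowest, 1 of the 6 storage genes was highest among its genotype. That library was the highest of its genotype for 32.5% of all tested genes. In amiRNA-VQ1,10 replicate 3, where 8 of the 9 regulators were highest, 4 of the 6 storage genes were lowest, against 32.8% of all tested genes.

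**Figure D4:**
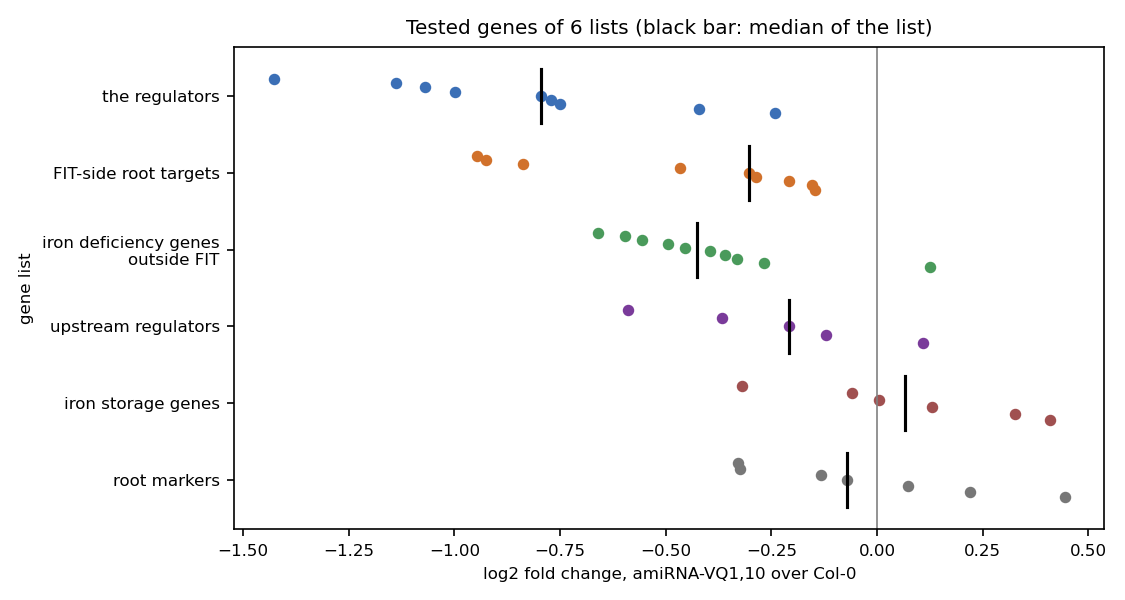
Log2 fold change of amiRNA-VQ1,10 over Col-0 for each tested gene (points) of the regulators and 5 other lists, with the median as a black bar. The medians are -0.79 for the regulators, -0.30 and -0.43 for the lists of iron deficiency targets, -0.21 for upstream regulators, 0.07 for storage genes and -0.07 for root markers.

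The genes whose profile over the 6 libraries was most like the mean of the 9 tested regulators were found by the root mean square difference of centred log2 CPM, among 12692 other tested genes of at least 5 CPM. They were PAP1, a MYB factor of anthocyanin synthesis (0.14), AT1G12030 (0.16), the glutathione transferase GSTL1 (0.16), AT4G14090 (0.17) and AT3G13677 (0.18). PAP1 stood at 51.4, 26.2 and 30.8 CPM in Col-0 and at 13.2, 27.8 and 28.0 CPM in amiRNA-VQ1,10, with the same extremes in replicate 1. For bHLH39 alone the nearest genes were IMA2 (0.18), GSTL1 (0.22) and CYP82C4 (0.23). Among the regulators IMA2 (0.13), bHLH39 (0.17) and IMA1 (0.18) were nearest to the common mean and bHLH38 (0.46), FIT (0.33) and BTS (0.33) farthest. These are descriptions over the 6 libraries, and the difference between the genotypes is part of each profile.

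In the RefSeq annotation 3 regulators overlap a gene on the opposite strand, and for these reads in the overlap may have been set aside or assigned to either gene. The 3′ end of bHLH38 overlaps PIP5K4 by 386 bases, and PIP5K4 had at most 5 counts in any library. IMA3 overlaps AT2G30760 by 639 bases at its 5′ end and CYP71A13 by 572 bases at its 3′ end, and neither had more than 2 counts in a library. The 3′ end of bHLH101 overlaps GLU1, a glutamate synthase with 263 to 394 counts per library, by 79 bases. GLU1 had a log2 fold change of 0.07 ± 0.10, against -1.23 ± 0.43 for bHLH101 in the fit with no filter.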

How the data were processed

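The authors deposited unnormalized whole-number counts, 1 file per library, made from 3′ RNA-seq of total RNA (integrity number above 8, 1 µg per library, molecular identifier of 6 bp, per the labels' protocols). STAR, HISAT2 2.0.4, DESeq2 and the build TAIR10 are named in the submitters' processing notes. Which counter was used, with which strand setting, and whether molecular identifiers were collapsed is not stated there, so intervals cover counting error only. Rows without a gene were set aside (reads outside genes 3.79% to 4.07%, in more than 1 gene 0.103% to 0.109%, with more than 1 alignment 4.40% to 5.45%).

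The genotypes were compared over all genes with the edgeR 4.0.16 quasi-likelihood test in R 4.3.3 (TMM, filterByExpr with minimum count 10 and total 15, Benjamini-Hochberg, threshold 0.05). Standard errors are the fold change (log2) divided by the root of the F statistic. CPM use TMM-scaled library sizes, and log2 CPM a prior count of 2. On simulated data of this comparison, with 12347 genes, 18.8% of those changed 1.5-fold were called and 89.8% at 2-fold. Simulated counts were drawn with the spread between replicates that is typical of a gene's level. These shares do not cover genes that vary more between replicates, as most regulators did in Col-0. Replicates differed by more than sampling noise (chi-square per degree of freedom 1.24 to 1.58). P-values and standard errors weigh the difference between the genotypes against the spread between these libraries within a genotype. In edgeR that spread is estimated partly from all tested genes, so it is not that of the single gene alone. DESeq2 gave a larger standard error for each tested regulator, such as 0.75 against 0.38 for bHLH38. For bHLH39 it was 0.40 against 0.23, and for IMA2 0.50 against 0.24. Whether variation between transgenic lines is covered is unknown, since the labels do not give their number.

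The regulators and gene lists were chosen with earlier results of these data known. Named beside the regulators are, per list, up to 4 tested genes with the smallest p, IRT1 and FRO2, and the genes of most similar profile, while root and shoot markers are given as sums. AHA2, bHLH115, FER3 and the shoot markers were picked after values were seen. Names, overlaps and sequences came from RefSeq on TAIR10.1 (32548 of 32833 identifiers matched), with alignments by Biopython 1.88. Alternatives were other scalings and filters, DESeq2 1.42.0, limma-voom (limma 3.58.1), a replicate block, no organelle genes, each library left out and, chosen after the data were seen, replicate 1 of both genotypes left out.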

Additional observations from a re-analysis of the deposited data

How the results depend on the processing

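The direction of 8 of the 9 tested regulators was the same under every alternative run. The log2 fold change of PYE was -0.46 to 0.020 with a library left out, above 0 without amiRNA-VQ1,10 replicate 1, and also above 0 without replicate 1 of both genotypes (0.23), and it was not called in any fit. The number of regulators called was 1 in the fit reported and 0 with a strict filter, by DESeq2, by limma-voom, with the replicate block and without replicate 1 of both genotypes. It was 6 with no filter and 0 to 5 with a library left out. The number over all genes was 13, and it was 92 with no filter, 6 with a strict filter, 6 by DESeq2, 8 by limma-voom and 10 to 37 with a library left out. With no filter 22738 genes entered the fit, and with the strict filter 4594 genes and 5 of the regulators. The cause of the other changes was not tested. The median of the regulators tested was -1.18 to -0.51 with a library left out, where bHLH101 entered 4 of the 6 fits, and -1.08 to -0.51 over the 9 tested with all libraries, and -0.29 without replicate 1 of both genotypes. The replicate block called 16 genes in all. Libraries of the same number did not deviate together (correlations of -0.03, -0.02 and -0.01 over 12701 genes), so the number was not taken to pair them. The depth limits bHLH101, with 38 counts over the Col-0 libraries and 14 over those of amiRNA-VQ1,10.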
